A study of Mus musculus with 6 samples.

Results

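All 6 libraries of the series were divided into 3 with a high and 3 with a low level of Spp1, the gene of osteopontin, and the sides were described across all genes. The members of each side were chosen by the measured Spp1 count alone. A library was placed on the high side above 1000 CPM (the count of a gene scaled by the total of its library) and on the low side below 500 CPM. The high side held vehicle library C2 and TEPP-46 libraries T2 and T3, and the low side held vehicle libraries C1 and C4 and TEPP-46 library T1, so both sides mix the treatments. The libraries came from wild-type mice with an experimental intracerebral haemorrhage, a bleed into the brain, and from the tissue around the clot on day 5. The mice had been given vehicle (3 libraries) or TEPP-46 (3 libraries), an activator of pyruvate kinase M2, on each of 5 days after the bleed. Every library carries the bleed, and no library of unbled brain was analysed here. Whether each library is a different animal is not said in the labels. A p-value here sets a difference only against the spread of these libraries, which may be technical. Because Spp1 itself placed the libraries, the differences between the sides are given as a description with no test.

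Osteopontin is a secreted matrix protein that binds integrins and CD44 on the cell surface. In the injured brain it is made mainly by activated microglia and by macrophages that have entered from the blood, the cells that clear dead tissue, myelin debris and blood. Such phagocytes switch on lysosomal proteases, lipid-handling genes and the receptor pair Trem2 and Tyrobp, while resting microglia are known by genes such as P2ry12 and Tmem119.

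To show the sequence around genes that define this phagocyte state, the 250 bases before an annotated start of 4 members of the activated microglia list are printed here, 5′ to 3′ on the strand of the gene. They are from RefSeq on GRCm38.p6. The list has 25 genes, of which 20 matched the RefSeq table with 25 start sites. Capitals mark each match, on either strand, to 1 of 3 motifs: TGANTCA, bound by AP-1 factors; CACGTG, the E-box bound by TFEB and its relatives, the regulators of lysosomal genes; and GAGGAAGT, bound by PU.1, the lineage factor of microglia and macrophages. The windows are those of Spp1 (chr5:104434861-104435110, plus strand), Ctsd (chr7:142387828-142388077, minus strand), Cd68 (chr11:69666171-69666420, minus strand) and Trem2 (chr17:48346151-48346400, plus strand).
Spp1: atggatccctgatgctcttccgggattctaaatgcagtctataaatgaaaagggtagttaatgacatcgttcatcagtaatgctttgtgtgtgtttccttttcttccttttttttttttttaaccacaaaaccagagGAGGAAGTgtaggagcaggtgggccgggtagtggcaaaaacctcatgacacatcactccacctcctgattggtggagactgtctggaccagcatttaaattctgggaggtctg
Ctsd: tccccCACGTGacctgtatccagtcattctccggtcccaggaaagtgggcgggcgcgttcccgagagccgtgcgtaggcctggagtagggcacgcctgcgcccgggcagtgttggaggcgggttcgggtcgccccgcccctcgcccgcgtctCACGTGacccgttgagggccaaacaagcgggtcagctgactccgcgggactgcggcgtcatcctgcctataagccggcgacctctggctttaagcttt
Cd68: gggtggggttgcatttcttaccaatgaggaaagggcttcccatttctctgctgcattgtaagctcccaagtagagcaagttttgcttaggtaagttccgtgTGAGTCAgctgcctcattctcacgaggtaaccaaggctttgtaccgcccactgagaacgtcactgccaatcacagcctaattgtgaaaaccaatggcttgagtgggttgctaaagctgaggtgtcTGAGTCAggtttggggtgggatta
Trem2: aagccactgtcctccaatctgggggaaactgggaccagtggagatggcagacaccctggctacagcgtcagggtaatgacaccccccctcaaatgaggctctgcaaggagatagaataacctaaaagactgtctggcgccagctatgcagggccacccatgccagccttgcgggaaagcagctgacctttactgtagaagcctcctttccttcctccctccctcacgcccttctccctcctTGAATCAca
The printed window of Spp1 held 1 match to GAGGAAGT, and the window of its second RefSeq start (chr5:104435942-104436191, not printed) held no match to any of the 3 motifs. GAGGAAGT was in 1 of the 25 list windows (4%) and in 2.44% of all 32851 windows of this length. Ctsd held 2 matches to CACGTG, the 1 list window of 25 (4%) with that motif, against 6.02% of all windows. Matches to TGANTCA lay in the windows of Cd68 (2 matches), Trem2, Igf1 and Itgax, 4 of the 25 windows (16%) against 6.75% of all windows. A match describes letters in the window and is not a measured binding site.

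Spp1 (ENSMUSG00000029304) is a protein-coding gene on the plus strand of chromosome 5, from 104435118 to 104441050 on GRCm38. On the high side it was at 3734 CPM in C2, 2220 in T3 and 1499 in T2, from 21286, 11782 and 8428 counts. On the low side it was at 362 CPM in T1, 176 in C1 and 108 in C4, from 2179, 939 and 570 counts. The 2 libraries nearest the thresholds, T2 and T1, lay 4.14-fold apart, and the highest and lowest, C2 and C4, 34.6-fold apart, both of them vehicle. The mean of the high side was 11.5 times that of the low side, 26.3 times within vehicle and 5.14 times within TEPP-46.

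**Figure D1:**
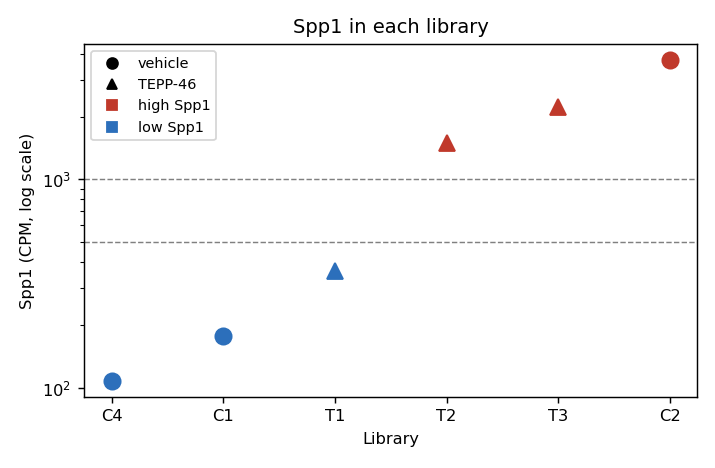
Level of Spp1 in each of the 6 libraries, in CPM on a log axis, with circles for vehicle, triangles for TEPP-46 and dashed lines at the thresholds of 500 and 1000 CPM. The lowest library (C4, 108 CPM) and the highest (C2, 3734 CPM) are both vehicle, and no library lies between the lines.

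The split ran across the treatment labels, with libraries of both treatments on each side. By label, the mean Spp1 level was 1360 CPM with an SD of 937 for TEPP-46 (n = 3) and 1339 CPM with an SD of 2074 for vehicle (n = 3), with an exact two-sided permutation p of 1, where 3 against 3 allows no p below 0.1. In edgeR's quasi-likelihood test the log2 fold change of TEPP-46 over vehicle was -0.00 with a standard error of 1.61 and a Benjamini-Hochberg adjusted p of 1.000. Without C2 the fitted log2 fold change was 3.26 (edgeR adjusted p = 0.324), and without T1 it was 0.45 (edgeR adjusted p = 1.000). The split of Spp1 counts over annotated transcripts was alike on both sides: Spp1-201, Spp1-202 and Spp1-205 took 30.7 to 31.1%, 30.6 to 31.1% and 31.6 to 32.4% of the counts in every library, and Spp1-204 took 5.42 to 6.67%. The counts of the first 3 were nearly equal to each other in each library, so they are not independent counts.

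The libraries were close in depth, with total counts between 5286426 and 6025064 and between 18429 and 18985 genes with a count. The general markers of neurons (14 genes), oligodendrocytes (14) and astrocytes (14) all passed the expression filter used below, as in brain tissue. Haemoglobin transcripts, which come from blood in the tissue, took 0.0644 to 0.105% of counts on the high side and 0.0319 to 0.0557% on the low side. Mitochondrially encoded transcripts took 2.76 to 3.13% against 2.36 to 2.72%. Neither range overlapped between the sides, and the part of blood and of RNA quality in the differences given here was not tested. Region markers also differed between libraries. Transthyretin (Ttr), which the choroid plexus makes, was nearly missing from C2 (0.526 CPM) and C4 (13.6 CPM), 1 library of each side, and lay at 1778 to 4053 CPM elsewhere.

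Of 24459 genes in the table, 11254 had a mean of at least 5 CPM over the 6 libraries and were compared. A gene is called higher here where every high library lay above every low library and the ratio of the mean CPM was 2 or more, and lower where the order was reversed and the ratio 0.5 or less. By this rule 169 genes (1.5%) were higher and 19 (0.169%) were lower on the high side. Without the condition on the ratio, 979 genes (8.7%) lay wholly above and 899 (7.99%) wholly below. With 1 library left out, separate sides are met more easily, and the counts were 256 higher and 144 lower without T1, 40 lower without C1 and 55 lower without T2. The log2 ratio of high over low had a median of -0.04 over all genes compared, with the 10th and 90th percentiles at -0.37 and 0.36. Because Spp1 chose the sides and these genes move with it, the shares are printed as the background of the counts of list members below, which are descriptions too.

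Of the 169 higher genes, 71 belong to at least 1 of the 32 marker and pathway lists and 98 to none. Library C2 was the highest of the 6 for 142 of them, C4 the lowest for 123, and T1 the highest of the low side for 104, the places they have for Spp1. Leaving out Spp1 itself, 53 of 168 genes had the 6 libraries in the same order as Spp1 throughout. For 131 of the 169 genes, Spp1 included, the Pearson correlation with Spp1 over the 6 libraries was 0.9 or more, in values that the selection itself makes similar.

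The genes of activated microglia, the state that clears debris, were mostly higher. Of 25 members 22 passed the expression filter, 15 were higher by the rule and 18 lay wholly above, with Spp1 among them. Ch25h, Cst7 and Itgax, 3 known members, were under the filter. Because the filter is a mean over all libraries, a member expressed only on the high side could pass through that side alone, and the counts give no support of their own. The median log2 ratio was 1.33, with 1.77 within vehicle and 0.69 within TEPP-46.

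Gpnmb, a membrane glycoprotein of lipid-laden phagocytes, was at 104 CPM in C2, 44.1 in T2 and 47.9 in T3, and at 9.74 in C1, 1.89 in C4 and 15.9 in T1. The sides did not overlap, and the ratio of means was 7.10 (17.9 within vehicle and 2.89 within TEPP-46). Lgals3, the gene of galectin-3, which binds glycans on damaged membranes, was at 530, 290 and 320 CPM in C2, T2 and T3 and at 56.4, 23.3 and 104 in C1, C4 and T1, a ratio of 6.22. Lyz2, the lysozyme of myeloid cells, was at 502, 168 and 245 CPM in C2, T2 and T3 and at 55.4, 22.5 and 73.9 in C1, C4 and T1, a ratio of 6.03. In each of these genes C2 was the highest library and C4 the lowest.

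The receptor Trem2, which senses lipids and debris, was at 93.7, 52.8 and 63.9 CPM in C2, T2 and T3 and at 32.96, 23.1 and 35.7 in C1, C4 and T1, a ratio of 2.29. Its adaptor Tyrobp was at 587, 327 and 410 CPM on the high side and 179, 109 and 187 on the low side, a ratio of 2.79. The growth factor Igf1 was at 42.5, 21.5 and 25.2 CPM against 4.31, 4.92 and 10.5, a ratio of 4.53. The sides were apart in all 3 genes. Apoe, the lipid carrier made by astrocytes and by activated microglia, differed less in ratio, with 16421, 10822 and 13253 CPM in C2, T2 and T3 and 8557, 7846 and 8070 in C1, C4 and T1, a ratio of 1.65. The members that did not follow were Ank, a phosphate transport regulator that lay wholly below (36.6 to 44.8 CPM against 48.3 to 69.6), and Fth1, Csf1 and Axl, whose sides overlapped.

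Genes of resting microglia lay above or overlapped. Of 15 members 12 passed the filter, 2 were higher by the rule and 7 lay wholly above, none below, with a median log2 ratio of 0.62. P2ry12, the ADP receptor that guides microglial processes, was at 135, 94.6 and 88.0 CPM in C2, T2 and T3 and at 85.8, 95.9 and 89.1 in C1, C4 and T1. Apart from C2 its libraries lay together, and the sides overlapped (ratio 1.17). Fcrls, an Fc receptor-like gene of microglia, was at 301, 261 and 230 CPM against 104, 70.9 and 137, a ratio of 2.53. Cx3cr1, the fractalkine receptor, was at 169, 96.4 and 109 CPM against 83.7, 39.9 and 80.3, a ratio of 1.84. In a bulk tissue sample, more cells of a type and more RNA per cell cannot be told apart.

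Markers of monocytes and macrophages, which enter from the blood and share genes with activated microglia, were mostly higher where they passed the filter. Of 18 members 10 passed and 9 of these were higher, Emilin2 being the exception. Their median log2 ratio was 1.82 (2.24 within vehicle, 1.32 within TEPP-46), over members of which some passed through the high side alone, so it is not comparable with the median of another list. Arg1, the arginase of tissue-repair macrophages, was at 58.2 CPM in C2, 10.8 in T2 and 40.9 in T3, from 332, 61 and 217 counts. On the low side it was at 2.996 CPM in C1, 0.757 in C4 and 0.498 in T1, from 16, 4 and 3 counts. The ratio of means was 25.9, and the low side rests on few counts.

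Hmox1, the haem oxygenase that opens the haem ring, was at 80.3, 52.1 and 68.6 CPM in C2, T2 and T3 and at 8.24, 5.49 and 11.1 in C1, C4 and T1, a ratio of 8.09 (11.7 within vehicle, 5.43 within TEPP-46). Fibronectin, Fn1, was at 146, 84.5 and 124 CPM against 47.2, 41.2 and 32.0, a ratio of 2.95. Ms4a7, a marker of macrophages rather than of resting microglia, was at 14.4, 7.47 and 15.5 CPM against 1.498, 1.13 and 6.14. All 3 had separate sides. The defining genes of newly arrived monocytes were scarce: Ccr2 was between 0.189 and 3.20 CPM and Plac8 between 0 and 2.13 CPM over the 6 libraries, both under the filter. Of 10 border macrophage genes 3 passed the filter, and these, Pf4, Stab1 and Dab2, were higher (ratios 4.27, 3.37 and 2.32). Pf4 and Stab1 were under 5 CPM in every low library, so they passed through the high side. Mrc1, a defining marker under the filter, was at 0.754 to 1.07 CPM on the high side and 1.16 to 1.51 on the low side.

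Other leukocytes gave little signal. Of 11 neutrophil genes 2 passed the filter, and S100a8 was at 3.01 CPM or less in every library. Lcn2, which reactive astrocytes also express, was the 1 that was higher, with 40.0, 14.2 and 32.98 CPM against 5.43, 0.757 and 7.14. Retnlg and Ltf had a count of 0 in all libraries. Lymphocyte genes, 9 of 11 matched in the table, were all under the filter and together summed to 6.40 to 12.1 CPM on the high side and 3.18 to 7.30 on the low side. Their part in the differences between the sides was not tested.

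**Figure D2:**
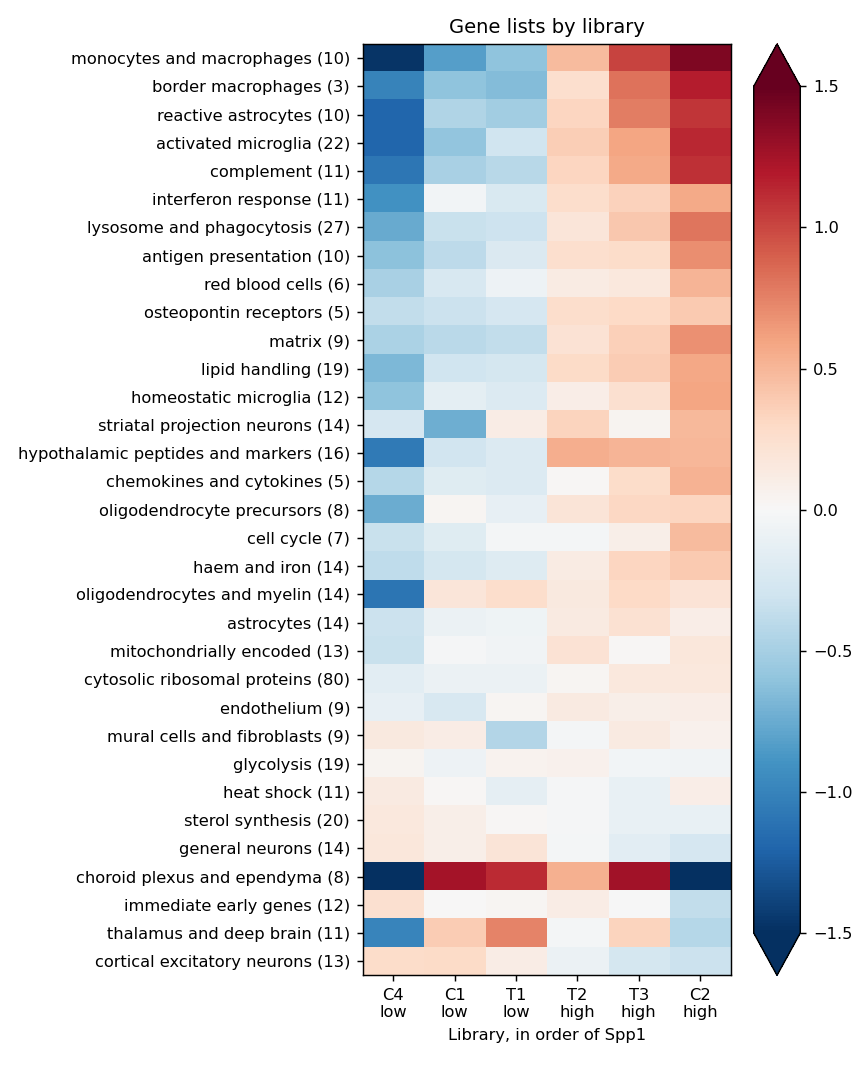
Mean deviation of each gene list in each library, as the average over the list members that passed the filter (number in parentheses) of log2(CPM + 1) less the mean of the gene over the 6 libraries, with the libraries in order of Spp1 and the lists in order of their median log2 ratio. Activated microglia, with Spp1 itself among the members, go from -1.19 in C4 to 1.13 in C2 in the order of Spp1. Because Spp1 made the split, this order gives no support of its own. Choroid plexus and ependyma are low in both C4 (-2.15) and C2 (-2.02).

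Lysosome and phagocytosis genes lay mostly above the low side. Of 29 members 27 passed the filter, 12 were higher by the rule, 23 lay wholly above and 1 wholly below, with a median log2 ratio of 0.96. Ctsd, an aspartic protease of the lysosome, was at 3449, 1815 and 2271 CPM in C2, T2 and T3 and at 919, 533 and 1152 in C1, C4 and T1, a ratio of 2.89. Ctsb, a cysteine protease, was at 1874, 1172 and 1339 CPM against 668, 588 and 867, a ratio of 2.07. Cd68, a glycoprotein of the phagocyte lysosome, was at 70.0, 42.7 and 46.5 CPM against 13.7, 5.49 and 19.1, a ratio of 4.16. The sides were apart in all 3. The Fc receptor subunit Fcer1g had a ratio of 2.76, and Fcgr2b, the inhibitory Fc receptor, 5.36. Psap, the precursor of the saposins that help to break down sphingolipids, lay wholly above with a ratio of 1.13. Atp6v1b2, a subunit of the lysosomal proton pump that neurons use for synaptic vesicles, lay wholly below (232 to 243 CPM against 266 to 282). Lamp1, a lysosomal membrane protein, was between 49.4 and 51.7 CPM on the high side and at 94.4, 144 and 36.7 CPM in C1, C4 and T1, so its sides overlapped.

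Lipid handling genes lay mostly above the low side. Of 20 members 19 passed, 5 were higher, 13 lay wholly above and 1 wholly below, with a median log2 ratio of 0.69. Plin2, which coats lipid droplets, was at 133, 82.0 and 87.2 CPM in C2, T2 and T3 and at 15.7, 8.13 and 22.2 in C1, C4 and T1, a ratio of 6.56. The scavenger receptors Cd36 and Msr1, which take up oxidised lipid, had ratios of 7.69 and 13.9, and for Msr1 the low side was at 0.936, 0.567 and 0.664 CPM. Abca1, which exports cholesterol, had a ratio of 2.28, and Lpl, a lipase, 2.30. Hmgcs1, an early enzyme of sterol synthesis, lay wholly below, at 174 to 204 CPM against 219 to 233. The sides of Hmgcs1 were close, with a ratio of 0.831.

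A list of 22 sterol synthesis genes was drawn up after these values were seen, since Msmo1 and Cyp51 stood among the genes most opposed to Spp1. Of 20 that passed the filter, 6 lay wholly below (Idi1, Hmgcs1, Fdft1, Pmvk, Cyp51 and Msmo1) and none above, with a median log2 ratio of -0.19. Of all genes compared, 7.99% lay wholly below. The 6 include Msmo1 and Cyp51, which prompted the list, and Hmgcs1, described above, so the count gives no support of its own. Msmo1, a sterol demethylase, was at 65.8, 71.0 and 67.6 CPM in C2, T2 and T3 and at 89.5, 95.7 and 86.0 in C1, C4 and T1, a ratio of 0.754. No member had a ratio below 0.739.

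Complement genes were largely above. Of 15 members 11 passed, 7 were higher and 8 lay wholly above, with a median log2 ratio of 1.26. C1qb, part of the C1q complex that tags synapses and debris, was at 356, 197 and 228 CPM in C2, T2 and T3 and at 115, 71.3 and 117 in C1, C4 and T1, a ratio of 2.57. The receptors had higher ratios: C3ar1, for C3a, 5.78, and C5ar1, for C5a, 7.08. Itgb2, the beta chain of complement receptor 3, had a ratio of 5.45. Itgam, its alpha chain, overlapped between the sides (6.03 to 15.8 CPM against 2.08 to 6.14). In C1, C4 and T1, C3ar1 was at 2.43, 1.89 and 3.65 CPM and Itgb2 at 2.81, 0.567 and 3.82 CPM. Both passed the filter through the high side and rest on few low-side counts, so their ratios are not comparable with that of C1qb.

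Antigen presentation and interferon response genes had smaller ratios. Of 16 antigen presentation genes 10 passed, 4 were higher and 9 lay wholly above (median log2 ratio 0.88). H2-Ab1, an MHC class II chain, was at 39.3, 24.4 and 18.7 CPM in C2, T2 and T3 and at 12.7, 7.76 and 8.13 in C1, C4 and T1, a ratio of 2.88. Of 16 interferon response genes 11 passed, 5 were higher and 8 lay wholly above (median 0.99), with Ifitm3, which restricts virus entry, at a ratio of 2.03. Of 19 chemokines and cytokines only 5 passed the filter, and 1, the chemokine Ccl12, was higher with a ratio of 3.01. Tnf and Il6 were below 1 CPM in every library, so a difference was not detectable at this depth.

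Receptors for osteopontin differed unevenly. Of 10 genes 5 passed the filter, 1 was higher and 2 lay wholly above. Cd44, which binds osteopontin and hyaluronan, was at 10.2, 7.83 and 11.1 CPM in C2, T2 and T3 and at 3.18, 1.89 and 1.99 in C1, C4 and T1, a ratio of 4.12 (4.01 within vehicle, 4.76 within TEPP-46). The integrin chain Itgb1 lay wholly above with a ratio of 1.72. Itgav, the alpha chain of the classical osteopontin receptor, was at 24.2, 35.2 and 24.7 CPM against 19.9, 33.3 and 27.1, a ratio of 1.05 with overlapping sides. Itgb6 had a count of 0 in every library.

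Genes for haem and iron, which the cells around a clot take up from lysed red cells, were mixed. Of 18 members 14 passed, 4 were higher (Hmox1, Ftl1, Cp and Steap3), 5 lay wholly above and 1 wholly below. Ftl1, the light chain of ferritin, was at 2872, 1800 and 2038 CPM in C2, T2 and T3 and at 797, 809 and 1045 in C1, C4 and T1, a ratio of 2.53. The heavy chain Fth1 overlapped, at 3212 to 3951 CPM against 2908 to 3452, with a ratio of 1.15. Tfrc, the transferrin receptor for iron uptake, lay wholly below, at 16.7 to 23.7 CPM against 28.4 to 29.4. Haemoglobin genes lay wholly above beside them: Hba-a1, an alpha chain whose value is uncertain because Hba-a2 is a near-identical copy, was at 334, 198 and 236 CPM against 144, 101 and 178. The part of residual blood in the haem and iron values was not tested.

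Reactive astrocyte genes followed the same division. Of 19 members 10 passed the filter, 7 were higher and 9 lay wholly above, with a median log2 ratio of 1.60. Gfap, the intermediate filament of reactive astrocytes, was at 417, 247 and 348 CPM in C2, T2 and T3 and at 175, 59.4 and 158 in C1, C4 and T1, a ratio of 2.58. Vim, a filament shared by reactive glia, macrophages and vessels, had a ratio of 3.57, the protease inhibitor Serpina3n 3.59 and the metalloprotease inhibitor Timp1 5.16. General astrocyte genes, 14 of 14 passing, had none higher by the rule, 7 wholly above and a median log2 ratio of 0.31. Slc1a2, the glutamate transporter, overlapped with a ratio of 1.04. Of 16 matrix genes 9 passed, 3 were higher and 7 lay wholly above, among them Col1a1 (ratio 3.26) and Col4a1 (2.55).

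Neuronal genes lay in the other direction with small ratios. Of 14 general neuron genes all passed, none was lower by the rule and 9 lay wholly below, with a median log2 ratio of -0.28 (-0.31 within vehicle, -0.26 within TEPP-46). Nefl, a neurofilament chain of axons, was at 187, 212 and 213 CPM in C2, T2 and T3 and at 270, 252 and 266 in C1, C4 and T1, a ratio of 0.776. Nrgn, a calmodulin-binding protein of dendrites, was at 2683, 2488 and 2513 CPM against 2927, 3775 and 2831, a ratio of 0.806. Of 13 cortical excitatory neuron genes, all of which passed, 6 lay wholly below (median -0.47), or 4 when libraries were scaled by TMM factors. Cck, a neuropeptide of cortical neurons, was at 380, 435 and 399 CPM against 536, 732 and 478, in the inverse order of Spp1 in all 6 libraries.

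Striatal projection neuron genes, by contrast, lay above or overlapped. Of 14 members, all passing, 1 was higher, 5 lay wholly above and none below, with a median log2 ratio of 0.54, made up of 0.90 within vehicle and 0.10 within TEPP-46. Penk, the enkephalin precursor of striatal neurons, was at 930, 707 and 634 CPM in C2, T2 and T3 and at 251, 396 and 485 in C1, C4 and T1, a ratio of 2.01. Adora2a, the adenosine receptor of the same neurons, had a ratio of 1.94 (3.53 within vehicle, 1.06 within TEPP-46). Thalamic genes (11 of 13 passing, 0 wholly apart) and choroid plexus genes (8 of 14 passing, 1 wholly above) did not separate the sides. Tcf7l2, of the thalamus, was at 15.6, 36.6 and 62.7 CPM in C2, T2 and T3 and at 69.5, 4.35 and 95.1 in C1, C4 and T1. Myelin genes did not separate the sides either: of 14 oligodendrocyte genes none lay wholly above or below, while 2 lay wholly above when libraries were scaled by TMM factors. The share of each brain region in a library was not measured apart from such markers, and its part in the differences between the sides was not tested.

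**Figure D3:**
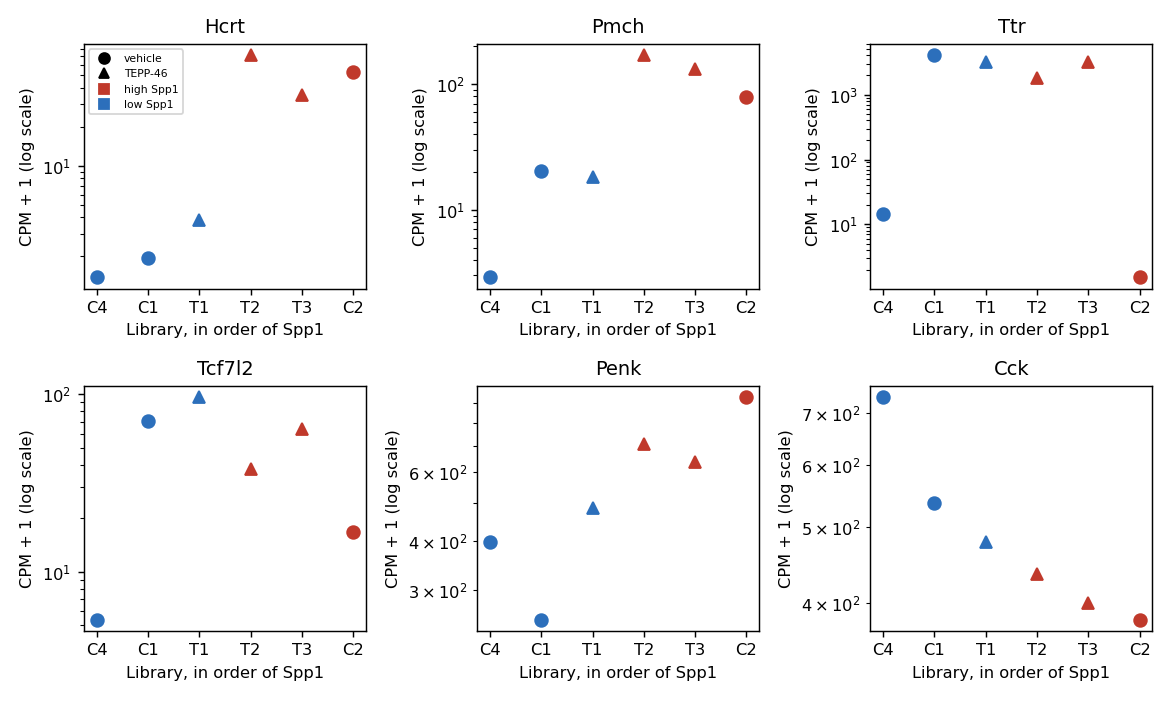
Levels of 6 neuronal, thalamic and choroid plexus genes by library, as CPM + 1 on log axes, with the libraries in order of Spp1, circles for vehicle and triangles for TEPP-46. Hcrt, Pmch and Penk are higher in the 3 high libraries, Cck goes in the inverse order, and Ttr and Tcf7l2 do not follow the split.

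Among genes whose sides did not overlap, the one with the largest ratio was not an immune gene. Hcrt, the orexin precursor made by neurons of the lateral hypothalamus, was at 52.1 CPM in C2, 70.6 in T2 and 34.5 in T3, from 297, 397 and 183 counts. In C1, C4 and T1 it was at 0.936, 0.378 and 2.82 CPM, from 5, 2 and 17 counts, and the ratio of means was 38.0 (79.3 within vehicle, 18.6 within TEPP-46). Pmch, the melanin-concentrating hormone precursor of neighbouring neurons, was at 78.1, 169 and 132 CPM against 19.5, 1.89 and 17.1, a ratio of 9.87. Both had T2 as the highest library, where Spp1 had C2.

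A list of 23 hypothalamic peptides and markers was drawn up after Hcrt and Pmch had been seen. Of 16 that passed the filter, 3 were higher: Hcrt, Pmch and Nts, the neurotensin precursor, with a ratio of 2.86. In all, 7 lay wholly above and none below, where 8.7% of all genes compared lay wholly above and 7.99% wholly below. Hcrt and Pmch, which prompted the list, are counted in it, so these counts give no support of their own. Hcrt was under 5 CPM in every low library and passed the filter through the high side. The other hypothalamic peptides did not all follow: Avp, the vasopressin precursor, was at 108, 80.6 and 130 CPM in C2, T2 and T3 and at 59.0, 0.757 and 102 in C1, C4 and T1, and Pomc overlapped with a ratio of 0.887. Hcrt and Pmch of the lateral hypothalamus thus had separate sides, as many phagocyte genes did, while not all peptides of the list had. How far the site of dissection has a part in the differences was not tested.

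The other genes with the largest ratios were mostly genes of phagocytes. Mmp12, the macrophage elastase, was at 34.6, 29.7 and 16.8 CPM in C2, T2 and T3 and at 1.87, 0.189 and 1.99 in C1, C4 and T1, a ratio of 19.99. Adam8, a membrane protease of leukocytes, had a ratio of 8.99. Lilr4b (10.3) and Lilrb4a (8.49), receptors of myeloid cells, are near-identical copies between which reads may be divided, so their separate values are uncertain. Of genes in the 169 chosen after their values were seen, Spi1, which encodes PU.1, was at 12.1, 5.51 and 6.03 CPM against 4.49, 3.78 and 1.66 (ratio 2.38). Adgre1, the macrophage marker F4/80, had a ratio of 3.20, and Aif1, the marker Iba1 of microglia and macrophages, 2.13.

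**Figure D4:**
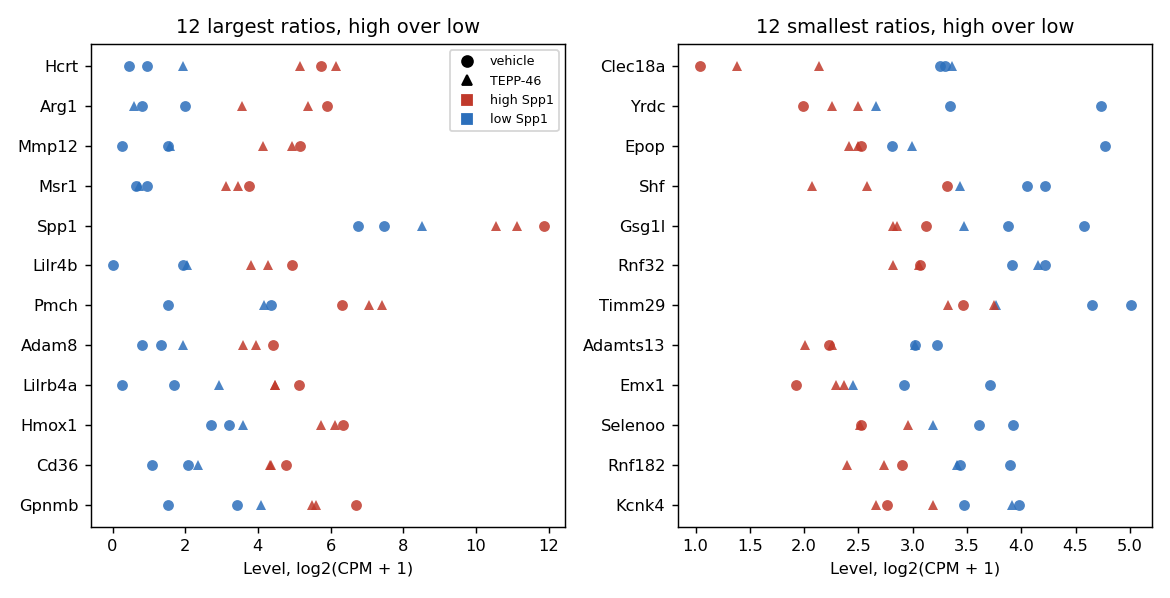
Levels of genes at both ends of the ratio of high over low, 12 at each end, among those whose sides did not overlap, as log2(CPM + 1), with 1 point per library, red for high and blue for low Spp1, circles for vehicle and triangles for TEPP-46. The largest ratios are of Hcrt (38.0), Arg1 (25.9) and Mmp12 (19.99), and the smallest are of genes at low levels, led by Clec18a (0.227).

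Few genes were lower, and they had low levels: the mean over the 6 libraries was at most 17.0 CPM in the 19 genes, 5 of which are loci without a reference identifier. C4 was the highest library for 14 of them. Clec18a, a C-type lectin, was at 1.05, 1.60 and 3.39 CPM in C2, T2 and T3 and at 8.80, 8.51 and 9.29 in C1, C4 and T1, a ratio of 0.227. Yrdc, an enzyme of tRNA modification, had a ratio of 0.284 that rests on C4, at 2.98, 4.62 and 3.77 CPM against 9.18, 25.5 and 5.31. Emx1, a transcription factor of cortical neurons, was at 2.81 to 4.15 CPM against 4.48 to 12.1. No list, of phagocyte genes or of any other kind, had a member that was lower by the rule. Of all genes compared, 0.169% were lower.

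The genes whose levels were most like Spp1 over the 6 libraries, by the Pearson correlation of log2 CPM among genes of at least 20 CPM, included genes with small ratios. Rpl10a, a protein of the large ribosomal subunit, came first with a correlation of 0.995 over 6 libraries. It was at 1045, 970 and 993 CPM in C2, T2 and T3 and at 812, 807 and 861 in C1, C4 and T1, a ratio of 1.21. Next were Plin2 and Rplp2, another ribosomal protein, followed by Hmox1, Cyb5r3 (a cytochrome b5 reductase), Vim and Ctsl, a lysosomal protease. At the other end were Msmo1 (correlation -0.995) and Atp6v1b2 (-0.990), both described above, and Cyp51, another enzyme of sterol synthesis (-0.988).

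Ribosomal protein genes as a family were therefore examined, after these values were seen. Of 83 genes 80 passed the filter, none was higher by the rule, 57 lay wholly above and none below. Of all genes compared, 8.7% lay wholly above. Rpl10a and Rplp2, which prompted the family, are among the 57. Their ratios were between 1.02 and 1.42, with a median log2 ratio of 0.20 against -0.04 over all genes compared. Together they took 9.07 to 9.73% of counts on the high side and 8.04 to 8.41% on the low side. Many of these genes have near-identical pseudogene copies, and how reads were assigned among them is not given in the sources used here.

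Glycolysis genes, the pathway of the target of TEPP-46, did not separate the sides as a list. Of 23 entries for 22 genes 19 passed, 1 was higher, 3 lay wholly below (Hk1, Pfkm and Aldoa) and 15 overlapped, with a median log2 ratio of -0.07. Pkm, which encodes pyruvate kinase M1 and M2, was at 2213, 2643 and 2257 CPM in C2, T2 and T3 and at 2286, 2253 and 2558 in C1, C4 and T1, a ratio of 1.00. Slc16a3, the lactate exporter of activated macrophages, was the higher one, at 14.0, 10.3 and 8.29 CPM against 5.06, 5.49 and 4.65. Vessel genes (endothelium, 1 of 9 wholly above) and cell cycle genes (3 of 7 wholly above, none higher by the rule) had medians of 0.17 and 0.40. Immediate early genes had a median of -0.36, with 1 of 12 wholly below.

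The treatments could be compared for the same division, since C2 against C1 and C4 and T2 and T3 against T1 share no library. Each of these contrasts has a single library on 1 side, and both were split by the same gene. Over 11253 genes without Spp1, 59.1% had the same sign of the log2(CPM + 1) ratio in both treatments, and across genes, which are not independent replicates, Pearson's correlation was 0.29 and Spearman's 0.22. Genes at least 2-fold higher in the high library of vehicle numbered 297. Of these, 264 (88.9%) were also higher in TEPP-46, where 47.1% of all genes were, and 75 were at least 2-fold higher. Of 208 genes at least 2-fold lower in the high library of vehicle, 105 (50.5%) were lower in TEPP-46, where 52.9% of all genes were, and 6 were at least 2-fold lower. The share in the same direction was thus above that of all genes for the genes higher in vehicle and close to it for the genes lower in vehicle.

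**Figure D5:**
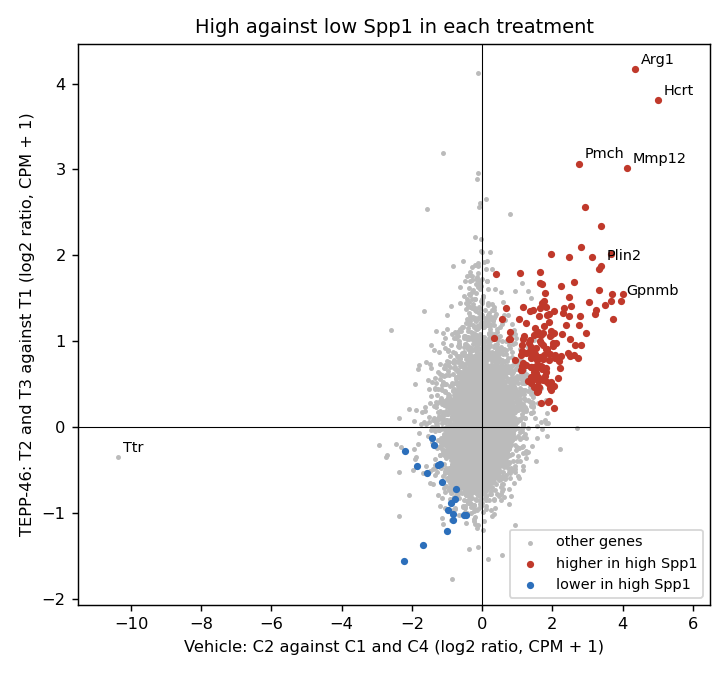
Log2 ratio (CPM + 1) of high over low Spp1 libraries within vehicle (horizontal) and within TEPP-46 (vertical), 1 point per gene without Spp1, with the 169 higher genes less Spp1 in red and the 19 lower genes in blue. Hcrt, Pmch, Arg1 and Mmp12 are high on both axes, and Ttr, at the far left, is at 0.526 CPM in C2.

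Leaving out Spp1, 18 of 21 activated microglia genes were higher on the high side in both treatments. So were 25 of 27 lysosome genes, 9 of 10 monocyte and macrophage genes and 24.7% of all 11253 genes. Spp1 split both treatments and genes of these lists move with it, so the counts give no support of their own. Members such as Arg1, under 5 CPM in every low library, passed the filter through the high side. The log2(CPM + 1) ratio was greater within vehicle for 20 of 21, 24 of 27 and 10 of 10 genes of these lists, and for 47.1% of all genes. Spp1 itself, which made the split, also had its greater ratio within vehicle. Arg1 had a log2 ratio of 4.36 within vehicle and 4.16 within TEPP-46 on this scale, while its ratio of plain CPM was 31.0 and 52.0, the latter over a low library, T1, with 3 counts. For Cd44 the ratio was greater within TEPP-46 on both scales (1.66 and 1.81 on the log2 scale). The difference between the treatments in these ratios was not tested.

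The last comparison is by treatment label. In edgeR's quasi-likelihood test of TEPP-46 against vehicle 0 of 14441 genes (0%) passed a Benjamini-Hochberg adjusted p of 0.05, with 856 genes at an unadjusted p under 0.05, and DESeq2 called 84. Without vehicle library C2, edgeR called 43 genes. Of the 169 genes higher with Spp1, 0 passed in edgeR and the smallest adjusted p was 0.744. These genes were chosen for a division that runs across both treatments, which widens their spread within each treatment, so nothing is read from their p-values. The same holds for the 19 lower genes, whose smallest edgeR adjusted p was 0.667. A p that misses the threshold does not show that the treatments were alike. For Spp1 the standard error of 1.61 on the log2 scale shows how imprecise the fitted difference between the treatments was.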

How the data were processed

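RNA from mouse tissue around an intracerebral haemorrhage was made into nanopore cDNA-PCR libraries, per the labels' protocols. The authors deposited raw counts per gene and per isoform for each library, per the file headers, and the submitters' processing notes name GRCm38 and DESeq 1.10.1. For aligner and counter the entry is "not given in the sources used here". A column's letter gives its group, C for vehicle and T for TEPP-46. The column numbers do not tie columns to the numbered titles, since C4 has no vehicle title of its number. Each library therefore goes by its column name. Unused columns of per-library values numbered 12.

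From the deposited gene counts, CPM was computed over the column total (5286426 to 6025064 counts). Genes with a mean of at least 5 CPM over the 6 libraries were compared between the 3 libraries above 1000 CPM of Spp1 and the 3 below 500, without a test. A pseudocount of 1 CPM was used for log2 ratios within a treatment. TEPP-46 was tested against vehicle with edgeR 4.0.16 in R 4.3.3 (filterByExpr, TMM, robust quasi-likelihood F test, Benjamini-Hochberg adjustment, threshold 0.05) and, as an alternative, DESeq2 1.42.0, and the test was also run on simulated data. Other scalings, filters, folds and libraries left out were tried.

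The members and the 32 gene lists were chosen with earlier results of these data known, and 3 more lists (hypothalamic markers, sterol synthesis, ribosomal proteins) after the values were seen. Named genes were Spp1, in each list up to 6 higher or lower members of highest mean CPM (or 2 where none passed), the 12 largest and 12 smallest ratios with separate sides, and the 10 genes most like Spp1. Other genes named were chosen after their values were seen. A list symbol carried by 2 identifiers counts as 2 entries. Some genes that the naming rule took are left out of the text.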

Additional observations from a re-analysis of the deposited data

How the results depend on the processing

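The counts of genes that separate the sides depend on the filter and the fold. Of the genes higher with Spp1 (169), TMM factors gave 178, all 169 among them, DESeq2 size factors 173 and sums of isoform counts 169. No filter gave 651, a mean of 20 CPM or more 55, a fold of 1.5 388 and a fold of 3 61. Leaving out 1 library gave 127 (without C2) to 256 (without T1), and with fewer libraries separate sides are met more easily by construction. Of the genes lower with Spp1 (19), TMM factors gave 16, all among the 19, and DESeq2 size factors 17. No filter gave 220, a mean of 20 CPM or more 0, a fold of 1.5 151 and a fold of 3 2. Leaving out 1 library gave 19 to 144, with 40 without C1, 55 without T2 and 144 without T1.

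The share of genes with the same sign in both treatments (59.1%) was 58.0% with TMM factors, 62.0% at a mean of 20 CPM or more, and 55.3 to 60.2% with C1, C4, T2 or T3 left out. C2 and T1 could not be left out, since each is the lone library of its side. Under TMM factors all 64 counts of higher or lower members in the 32 lists stayed within 1.5 times. Every count of lower members, and many of higher members, was 0 under both scalings. The counts that changed were of higher members in complement (7 to 8), lysosome and phagocytosis (12 to 13) and interferon response (5 to 6). The TMM factors lay between 0.976 (C2) and 1.026 (T1), so little change was possible.

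For TEPP-46 against vehicle, DESeq2 called 84 genes (4 higher, 80 lower) where edgeR called 0. Leaving out 1 library gave 0 to 43 edgeR calls, the 43 without C2. The log2 fold change of Spp1 went from -0.55 to 3.26 with 1 library left out, and turned positive without C2 (3.26) and without T1 (0.45). The cause of these changes was not tested. No paired analysis was possible because the columns do not carry the numbers of the labels.

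With 3 libraries a side and low counts on the low side, ratios such as those of Arg1 and Hcrt are imprecise. No interval is given for them.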
